A study of Mus musculus with 12 samples.

Results

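Bulk RNA sequencing was used to compare samples labelled as natural killer (NK) cells from tumors with samples of the same label from spleens, all from mice in which 1 gene was conditionally knocked out (cKO). The comparison rests on 3 tumor cKO and 3 spleen cKO libraries, chosen by the tissue and genotype in their labels, out of 12 libraries in the study. The other 6 libraries, 3 of spleen and 3 of tumor from wild-type (WT) control mice, were used only where the tissue difference was compared between genotypes. The knockout is shared by all 6 cKO libraries, and no treatment is labelled. The labels give neither the promoter that drives the deletion, the origin of the tumor, the markers used for sorting, the age of the mice nor the number of mice behind a library. The targeted gene is not analysed here, so the genotype label was not checked. Because nothing states that libraries of a group came from separate mice, the p-values speak only to the spread over these samples, which may be technical.

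NK cells are innate lymphocytes that recognise stressed, infected or transformed cells through germline-encoded activating and inhibitory receptors and kill them with perforin and granzymes. IL-15, read through the shared chains Il2rb and Il2rg and their JAK kinases, keeps them alive and armed, and the T-box factors Eomes and Tbx21 hold their identity. Inside tumors NK cells are known to meet low oxygen, TGF-beta and competition for nutrients, and they share that space with macrophages, T cells, stroma and tumor cells. The question set by the design is how the RNA of samples sorted under the same label differed between the tumor and the spleen when the gene was deleted.

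The spleen cKO libraries held 13387157, 9542329 and 13753737 counts and the tumor cKO libraries 22685684, 15765906 and 24832976 counts, here and below in the order of replicates 1, 2 and 3. Levels are CPM, that is counts rescaled to a library total of 1000000, and fold changes are log2 values of tumor over spleen with their standard error (SE) from the fit. A gene was called when its adjusted p was under 0.05, and "rose" and "fell" are used only for called genes, for a higher or a lower level in tumor. Reads fell on 19235 to 19500 genes in the spleen libraries and on 21503 to 22407 in the tumor libraries. Within a group, the log2 CPM of library pairs correlated with an r of 0.968 to 0.979.

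The level of the NK receptor gene Ncr1 (chromosome 7, 4337724 to 4345164, + strand, GRCm38, protein coding), which encodes NKp46, was 155, 93.5 and 159 CPM in spleen and 0.799, 0.441 and 0.684 CPM in tumor. The tumor libraries were all far under the spleen libraries, with a log2 fold change of -7.67 ± 0.31 (adjusted p = 4.30e-07). Klrb1c, which encodes the mouse NK marker NK1.1, was at 122, 175 and 116 CPM in spleen and 2.22, 1.45 and 1.05 CPM in tumor. Eomes was at 104, 122 and 89.4 CPM in spleen and 12, 9.96 and 6.8 CPM in tumor, and Tbx21 at 77.2, 78.9 and 70.0 CPM in spleen and 4.62, 2.59 and 2.37 CPM in tumor. Each of these 4 genes fell without overlap between the groups, by -6.45 ± 0.30 for Klrb1c, -3.46 ± 0.23 for Eomes and -4.55 ± 0.25 for Tbx21 on the log2 scale. The tumor libraries thus held little RNA of the genes that define NK cells, so the data do not bear out their NK label, and they are called tumor libraries throughout.

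Markers of other lineages were present in both groups. Pax5, the factor that commits cells to the B lineage, was at 521, 479 and 580.1 CPM in spleen and 6.7, 2.14 and 2.01 CPM in tumor. Cd79a, a chain of the B-cell receptor, was at 223, 174 and 215 CPM in spleen and 2.66, 0.883 and 1.17 CPM in tumor. Both fell, by -7.16 ± 0.50 and -6.98 ± 0.37, and both were at high levels in every spleen library. The deposited RPKM values, which allow genes to be compared per length, averaged 139.8 for Cd79a and 57.9 for Ms4a1 (CD20) in spleen, against 88 for Ncr1 and 25.4 for Eomes. All 18 tested genes of the B-cell list fell, and their summed level went from 7102 to 8013 CPM in spleen to 229.8 to 342 CPM in tumor. The corresponding sum for the 32 NK receptor and adaptor genes went from 1704 to 1874 to 232 to 354 CPM. In bulk samples, fewer cells of a type and less RNA per cell cannot be told apart, and the part of B-cell transcripts in any spleen level was not tested.

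Macrophage and T-cell markers moved the other way. Lyz2, the lysozyme of macrophages and neutrophils, was at 20.1, 22.5 and 17.2 CPM in spleen and 1386, 1288 and 543 CPM in tumor, and C1qa, a complement chain made by macrophages, at 10.7, 15.9 and 11.1 CPM in spleen and 78.1, 93.2 and 26.7 CPM in tumor. Csf1r, through which CSF-1 keeps macrophages alive, was at 26.2, 51.5 and 26.7 CPM in spleen and 194, 139 and 64.8 CPM in tumor. Replicate 3 of the tumor group was the lowest tumor library for all 3 genes and still lay above the spleen libraries, and all 3 rose, by 5.75 ± 0.41, 2.4 ± 0.47 and 1.94 ± 0.45. Adgre1 (F4/80) was at 10.3, 8.98 and 13 CPM in spleen and 29.2, 25 and 10.2 CPM in tumor, with overlapping groups. Its rise of 0.99 ± 0.37 (adjusted p = 0.0453) was lost when any library other than tumor replicate 3 was left out, at adjusted p-values from 0.0645 (without spleen replicate 3, 1.11) to 0.138 (without spleen replicate 2, 0.83). Without spleen replicate 1 it was 0.91, without tumor replicate 1 0.71 and without tumor replicate 2 0.89. Of 20 macrophage and monocyte markers, 15 rose and none fell by edgeR (0 at an unadjusted p under 0.05, with 1 fall without spleen replicate 3, 1 with a replicate block and 1 by limma on log2(RPKM + 1)), and their sum was 864 to 1130.1 CPM in spleen and 5713, 5049 and 1987 CPM in the tumor libraries.

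Trac, the constant segment of the T-cell receptor alpha chain, was at 10.9, 11 and 4.89 CPM in spleen and 70.8, 76 and 107 CPM in tumor, and the T-lineage factor Bcl11b at 18, 17.9 and 15.9 CPM in spleen and 137, 103 and 136 CPM in tumor. Cd3d, a signalling chain of the T-cell receptor complex, was at 25.7, 39.6 and 23.1 CPM in spleen and 83.2, 97.4 and 108 CPM in tumor. The tumor libraries were above every spleen library for these 3 genes, with rises of 3.26 ± 0.33, 2.86 ± 0.15 and 1.71 ± 0.21. Cd3e, another such chain, was at 19.6, 36.6 and 18.3 CPM in spleen and 41.1, 40.5 and 57.5 CPM in tumor, and it rose by 0.91 ± 0.28 (adjusted p = 0.0215). That call was lost without spleen replicate 1, at 0.72 (adjusted p = 0.0718), and without spleen replicate 3, at 0.68 (adjusted p = 0.0707). The sum of the 18 T-cell markers was 1165 to 1558 CPM over the tumor libraries, against 426 to 516 CPM over the spleen libraries.

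**Figure D1:**
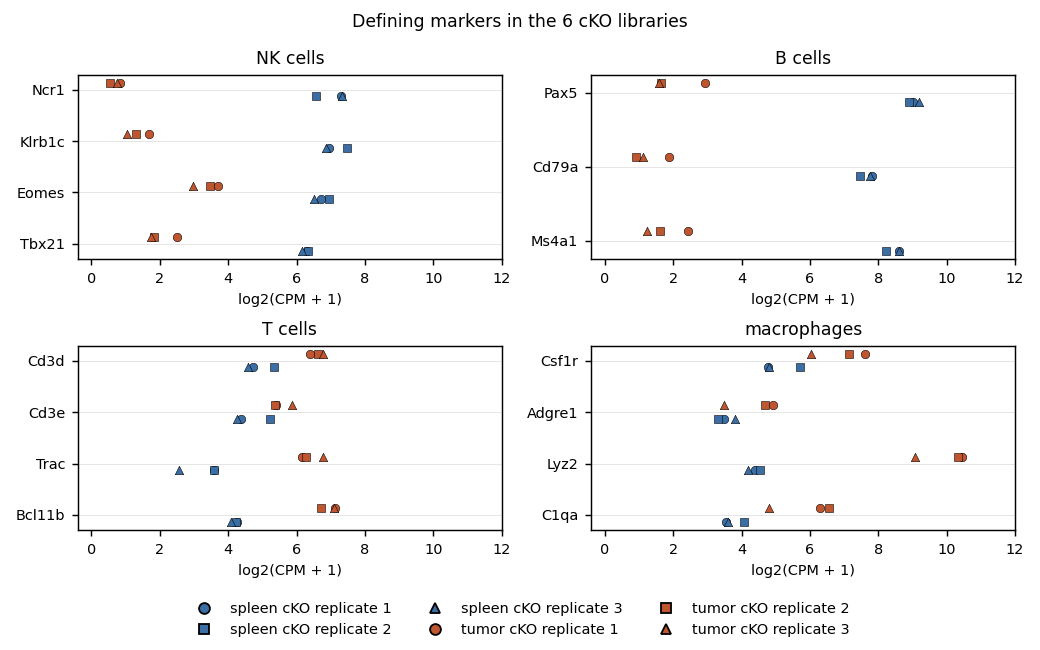
Level of the defining markers of NK cells, B cells, T cells and macrophages in each library, as log2(CPM + 1), with spleen cKO in blue, tumor cKO in orange and 1 symbol per replicate. NK and B-cell markers sat lower in all tumor libraries and T-cell markers higher, while Adgre1 of the macrophage panel overlapped between the groups.

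The third tumor replicate stood apart from replicates 1 and 2 in a regular way. It was the lowest of the tumor libraries for 20 of 20 macrophage and monocyte markers, 15 of 17 complement genes, 25 of 30 chemokine genes and 21 of 23 matrix genes. It was the highest for 16 of 18 T-cell markers, 29 of 30 DNA replication genes and 27 of 30 mitosis genes. Without this library 17 macrophage markers rose and 0 fell, and counts of the other lists named here are given both ways below. Mitochondrial transcripts took 1.94%, 2.72% and 1.70% of the counts in the tumor libraries and 0.882%, 0.946% and 0.862% in the spleen libraries.

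**Figure D2:**
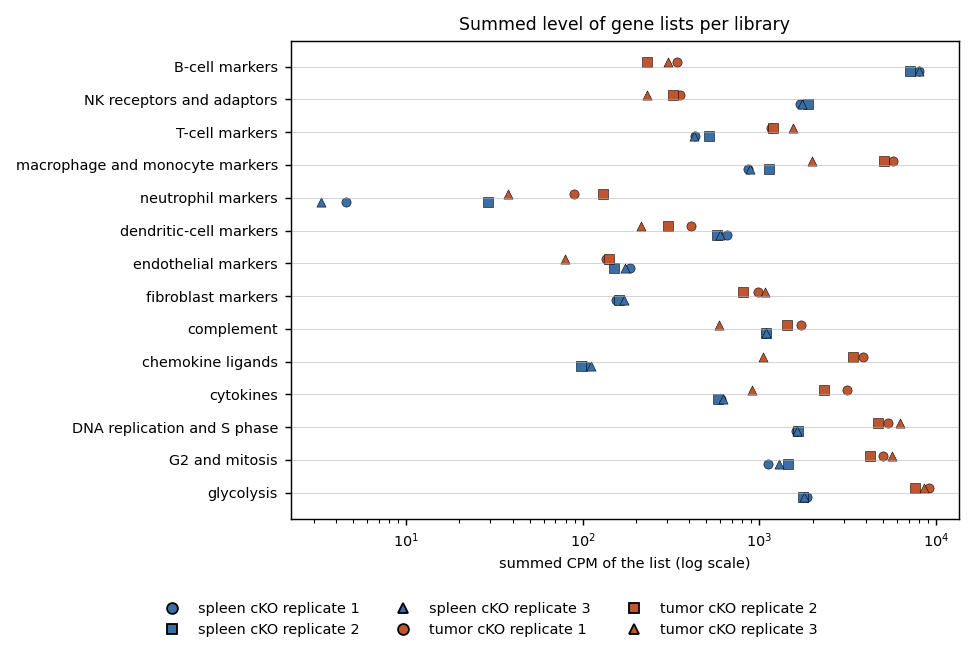
Summed CPM of the genes of each list in each library, on a log scale, with spleen cKO in blue, tumor cKO in orange and 1 symbol per replicate. The third tumor replicate, an orange triangle, lay under the other tumor libraries for macrophage, complement, chemokine and cytokine genes and above them for T-cell, replication and mitosis genes.

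Among 15399 genes tested, 10001 were called, 5281 of them higher and 4720 lower in tumor, which is 64.9% of all tested genes, 34.3% higher and 30.7% lower. The CPM of the groups did not overlap for 9890 of the called genes, and for 72.2% of all genes tested. A change of at least 2-fold was found for 6792 of the called genes, 3706 higher and 3086 lower, and of at least 16-fold for 871 and 583. The median log2 fold change over all genes tested was 0.08. With a background this broad, the count of a list is read against 34.3% higher and 30.7% lower in what follows. Of the genes tested, 288 had no spleen count and could not fall, and 79 had no tumor count and could not rise.

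The largest rises by the naming rule were of inflammatory, matrix-modifying and tumor-associated genes. Cxcl2 (chromosome 5, 90903871 to 90905938, + strand), a chemokine that draws neutrophils, had no count in any spleen library and stood at 1514, 1346 and 434 CPM in tumor, at least 12790.1-fold higher than a floor of 3 counts over the spleen group (adjusted p = 4.20e-04). Rhox5, a homeobox gene of the reproductive tract that is often active in mouse tumor lines, had no spleen count and stood at 943, 995 and 1311 CPM, at least 13225-fold higher. The tumor levels of these genes differed in their pattern, since replicate 3 was the lowest for Cxcl2 and the highest for Rhox5. Dclk3, a kinase gene, and Perp, a membrane protein of cell junctions, were also without spleen counts and stood at 163, 186 and 254 and 104, 148 and 200.3 CPM, at least 2454-fold and 1841-fold higher. Both had their highest level in tumor replicate 3, as Rhox5 did.

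Thbs1, which encodes the matrix protein thrombospondin-1, was at 0.151, 0.825 and 0.876 CPM in spleen and 1510.5, 1473 and 610.2 CPM in tumor, a rise of 10.94 ± 0.62. Its relative Thbs2 was at 0.302, 0 and 0.146 CPM in spleen and 62.3, 76.1 and 124 CPM in tumor, a rise of 9.01 ± 0.52. Replicate 3 was the lowest tumor library for Thbs1 and the highest for Thbs2, while both genes were near 0 in all spleen libraries. Inhba, a subunit of activin, was at 0.151, 0.206 and 0 CPM in spleen and 630.1, 246 and 133 CPM in tumor, and Ptgs2, the inducible cyclooxygenase, at 0.453, 0.619 and 0 CPM in spleen and 451, 335 and 98.3 CPM in tumor. Nlrp3, the sensor of an inflammasome, was at 0, 0.825 and 0 CPM in spleen and 219, 173 and 67.2 CPM in tumor. These 3 genes rose by 11.49 ± 1.05, 9.77 ± 0.94 and 9.38 ± 0.90, with no overlap between groups, which the naming rule requires. The remaining genes of this set were Cxcl1, another neutrophil chemokine (10.33 ± 1.04), the planar polarity gene Prickle1 (9.41 ± 0.44) and the metalloproteinase Mmp19 (9.34 ± 0.56).

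Apart from Ncr1, genes of B cells made up most of the largest falls. Fcmr (chromosome 1, 130865669 to 130880791, + strand), the Fc receptor for IgM, was at 564, 451 and 567 CPM in spleen and 3.46, 1.01 and 1.29 CPM in tumor, a fall of -8.06 ± 0.44. The complement receptor Cr2 was at 199.7, 247 and 223 CPM in spleen and 1.69, 0.378 and 0.443 CPM in tumor, and the low-affinity IgE receptor Fcer2a at 371, 306 and 338 CPM in spleen and 3.2, 0.568 and 1.61 CPM in tumor. In all 3 cases the spleen libraries lay close together, and the tumor libraries held about as little as a few CPM. Bcl11a, a factor of B-cell and early lymphoid development, was at 252, 222 and 224 CPM in spleen and 1.95, 1.39 and 1.13 CPM in tumor and fell by -7.28 ± 0.20. Of the same set were Cd79b (-7.27 ± 0.38), Pax5, Ms4a1 (-7.08 ± 0.43), Cd79a and the BAFF receptor Tnfrsf13c (-6.84 ± 0.30). The sulfotransferase Chst3 fell by -7.18 ± 0.43, and the calcium channel gene Cacna1i by -6.78 ± 0.24.

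The genes of smallest adjusted p were steady within each group, which this choice itself favours. Stk10, a lymphocyte kinase, was at 1212, 1219 and 1224 CPM in spleen and 134, 142 and 132 CPM in tumor, and Add3, a protein of the membrane skeleton, at 563, 574 and 614 CPM in spleen and 56, 56.5 and 55.2 CPM in tumor. Lmna, the gene of lamins A and C in the nuclear envelope, was at 24.9, 19.3 and 19.6 CPM in spleen and 709, 844 and 717 CPM in tumor. The changes of Stk10, Add3 and Lmna were -3.16 ± 0.08, -3.38 ± 0.09 and 5.15 ± 0.14, each at an adjusted p of 4.52e-08. Traf3ip3, Il16, Gimap1, Cd37, Sbk1, Bcl11a, the immunoglobulin segment Iglc3 and the predicted gene Gm4759 fell, by between -3.5 ± 0.10 for the tetraspanin Cd37 and -8.62 ± 0.20 for Iglc3. The uncharacterised 1500009L16Rik rose from 0.151, 0.206 and 0.292 CPM in spleen to 97.2, 105 and 126 CPM in tumor, by 8.92 ± 0.24.

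**Figure D3:**
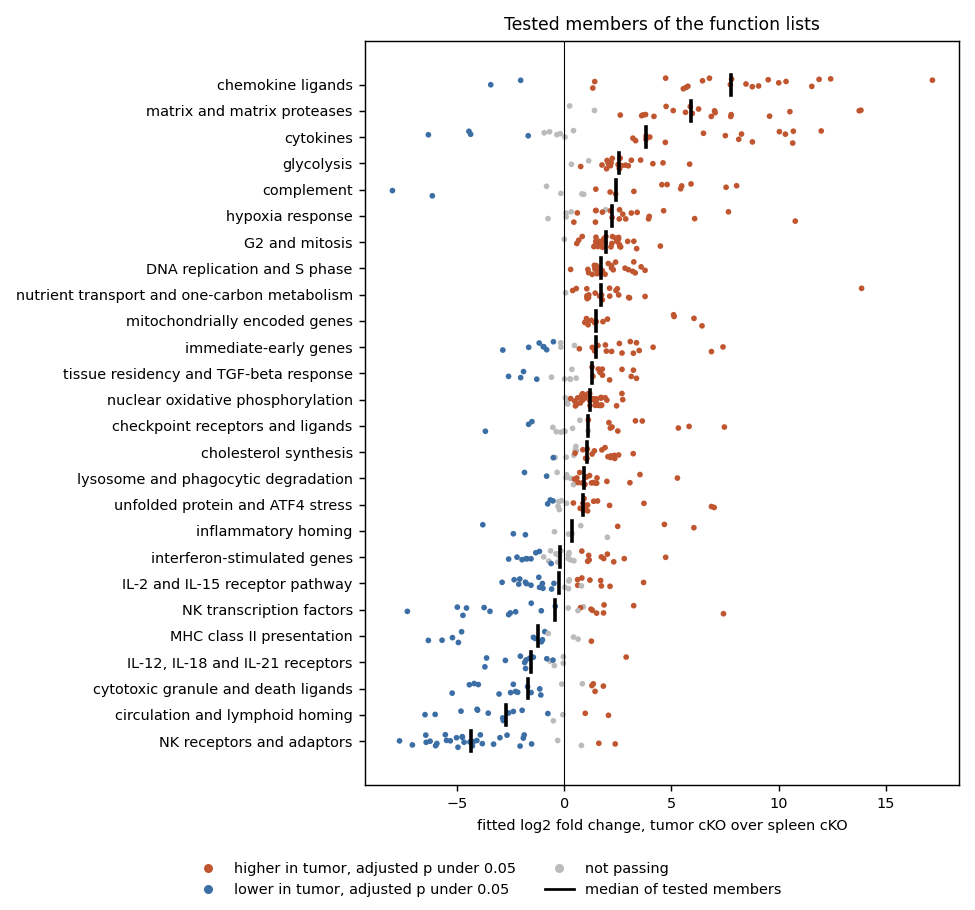
Fitted log2 fold change, tumor cKO over spleen cKO, of every tested member of the function lists, with called genes in orange (higher) and blue (lower), other genes in grey and the list's median as a bar. NK receptors and adaptors had a median of -4.33 and chemokine ligands one of 7.78, or 5.72 with genes that had no spleen counts held at their lower bound.

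Of 32 NK receptor and adaptor genes, 28 fell and 2 rose, against 30.7% lower and 34.3% higher among all genes, and their median log2 fold change was -4.33. Klrk1 (chromosome 6, 129610323 to 129623864, - strand), the activating receptor NKG2D, was at 255, 303 and 267 CPM in spleen and 17.9, 12 and 9.3 CPM in tumor. Klrg1, an inhibitory receptor of mature NK cells, was at 18.4, 15.4 and 19.7 CPM in spleen and 0.266, 0 and 0.0805 CPM in tumor. Every tumor library was far under every spleen library for both, and they fell by -4.39 ± 0.24 and -7.07 ± 0.50. The rises were Klra1, a Ly49 receptor, at 17.1, 19.6 and 16.3 CPM in spleen and 39.4, 52.5 and 70.2 CPM in tumor (1.61 ± 0.21), and Fcgr3, a low-affinity IgG receptor that macrophages share, at 11, 14.2 and 8.18 CPM in spleen and 80.1, 64.3 and 28.8 CPM in tumor (2.38 ± 0.41). Ly49 genes are close copies of each other, so counts may be split between them, and Klra1 stood highest in tumor replicate 3 while Fcgr3 stood lowest there.

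The signalling adaptors that NK cells share with myeloid cells behaved otherwise. Tyrobp (DAP12) was at 15, 28.3 and 32.7 CPM in spleen and 23.5, 26.3 and 12 CPM in tumor, with overlapping groups and a log2 difference of -0.30 ± 0.37 (adjusted p = 0.501). Fcer1g, the gamma chain of Fc receptors, was at 34.2, 33.3 and 25.1 CPM in spleen and 70.5, 61.3 and 30.1 CPM in tumor, a difference of 0.81 ± 0.31 that did not pass (adjusted p = 0.0513). It passed without tumor replicate 3, at 1.10 (adjusted p = 8.44e-05). The macrophage sum above was higher in every tumor library than in any spleen library, whereas the levels of Tyrobp and Fcer1g overlapped between the groups. The part of macrophages in these levels was not tested.

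Among 23 tested transcription factor genes of NK and other innate lymphoid development, 12 fell and 8 rose. Besides Eomes and Tbx21, the falls included Klf12, at 4.08, 6.4 and 8.03 CPM in spleen and 0.0888, 0 and 0 CPM in tumor, with 2 counts in all tumor libraries together and a spleen level higher by 195-fold (95% counting interval 53.4 to 1620.4). Zfp683 (Hobit), a factor of tissue-resident lymphocytes, was at 7.02, 5.26 and 4.75 CPM in spleen and 0.444, 0.0631 and 0 CPM in tumor and fell by -4.98 ± 0.82. Bach2, which restrains effector programs in lymphocytes and is active in B cells, was at 83.6, 82.3 and 82.4 CPM in spleen and 5.59, 1.58 and 2.09 CPM in tumor and fell by -4.72 ± 0.44. No tumor library reached a spleen library for these 3 genes. The rises included Nfil3, needed for early NK and innate lymphoid cells, at 9.89, 9.49 and 7.3 CPM in spleen and 86.2, 99.8 and 65.9 CPM in tumor (3.24 ± 0.20). Gata3, a factor of T cells and group 2 innate lymphoid cells, was at 6.64, 9.6 and 6.79 CPM in spleen and 28, 20.7 and 34.3 CPM in tumor (1.86 ± 0.24). Tox2, an NK and T-cell factor, had no spleen counts and stood at 1.15, 1.89 and 0.845 CPM in tumor, at least 14.9-fold higher (adjusted p = 0.00149).

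Cytotoxic genes were mostly lower in the tumor libraries. Of 19 tested granule and death-ligand genes, 13 fell and 4 rose, with a median of -1.71. Gzma (chromosome 13, 113093825 to 113100979, - strand), the tryptase granzyme A, was at 341, 524 and 425 CPM in spleen and 11.2, 15.5 and 8.25 CPM in tumor, a fall of -5.22 ± 0.28. Prf1, the pore-forming perforin, was at 131, 170.2 and 134 CPM in spleen and 7.19, 10.8 and 9.22 CPM in tumor, a fall of -4.0 ± 0.19. Gzmb, the apoptosis-inducing granzyme B, was at 116, 173 and 105 CPM in spleen and 24.2, 33.4 and 18.7 CPM in tumor, a smaller fall of -2.37 ± 0.27 (adjusted p = 1.62e-04). The tumor libraries were each under the spleen libraries for these 3 effector genes. Ctsw, a cathepsin of cytotoxic cells, fell by -4.19 ± 0.15, and Gzmk, granzyme K, by -4.42 ± 0.78.

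The rises in this list were of granule genes that other cells also use and of 1 granzyme. Lamp1, a protein of lysosome and granule membranes, was at 84.4, 80.6 and 82.9 CPM in spleen and 254, 239.7 and 180.3 CPM in tumor (1.44 ± 0.13). Srgn, the proteoglycan serglycin that packs granule contents, was at 160.4, 176 and 160.0 CPM in spleen and 494, 425 and 353 CPM in tumor (1.36 ± 0.13). Gzmc, granzyme C, was at 3.02, 0.413 and 2.19 CPM in spleen and 6.92, 5.11 and 8.45 CPM in tumor (1.83 ± 0.54), and the vesicle fusion gene Stx11 rose by 1.29 ± 0.20. Lamp1 and Srgn were lowest among the tumor libraries in replicate 3, as the macrophage markers were.

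The study's title concerns IL-15 receptor signalling, and 13 of 26 genes of the IL-2 and IL-15 receptor pathway fell while 8 rose, with a median of -0.22. Il2rb (chromosome 15, 78480553 to 78495066, - strand), the signalling chain shared by both receptors, was at 223, 218 and 188 CPM in spleen and 22.9, 33.8 and 28.2 CPM in tumor. Il2rg, the common gamma chain, was at 252, 245 and 236 CPM in spleen and 71.2, 60.2 and 43.2 CPM in tumor. Their tumor levels were all under the spleen levels, with falls of -2.89 ± 0.16 and -2.07 ± 0.17. Jak1, the kinase bound to Il2rb, was at 645, 814 and 673 CPM in spleen and 176, 160.1 and 156 CPM in tumor and fell by -2.12 ± 0.11, and the phosphoinositide kinase gene Pik3cd was at 238, 269 and 249 CPM in spleen and 51.6, 52.5 and 46.3 CPM in tumor and fell by -2.33 ± 0.10. B and T cells also use Il2rg, Jak1 and Pik3cd.

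Il15ra, the chain that presents IL-15, was at 2.79, 1.14 and 4.31 CPM in spleen and 9.81, 8.83 and 8.69 CPM in tumor and rose by 1.7 ± 0.40. Socs3, an inhibitor of cytokine signalling, was at 21.7, 22.7 and 17.5 CPM in spleen and 345, 342 and 119 CPM in tumor (3.7 ± 0.43). Cish, a feedback inhibitor induced by STAT5, was at 3.85, 3.1 and 3.07 CPM in spleen and 22.3, 13.1 and 8.85 CPM in tumor (2.14 ± 0.36), and Socs1 was at 1.43, 2.27 and 1.46 CPM in spleen and 4.97, 5.93 and 6.16 CPM in tumor (1.73 ± 0.34). All 4 were above the spleen libraries in every tumor library, with Socs3 and Cish lowest in tumor replicate 3 and Socs1 highest there.

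Receptors and transducers of IL-12, IL-18, IL-21 and related cytokines fell in 11 of 16 cases. Il18rap (chromosome 1, 40515362 to 40551705, + strand), the accessory chain of the IL-18 receptor, was at 136, 162 and 162 CPM in spleen and 12.2, 12.5 and 10.9 CPM in tumor and fell by -3.69 ± 0.13. Stat4, the transducer of IL-12, was at 144, 176 and 145 CPM in spleen and 18, 9.02 and 10.7 CPM in tumor and fell by -3.61 ± 0.26. Il12rb1, a chain of the IL-12 receptor, was at 9.44, 11.7 and 9.56 CPM in spleen and 1.42, 2.27 and 0.966 CPM in tumor and fell by -2.74 ± 0.35. No tumor library reached the lowest spleen library in any of these. The single rise was Il1rl1, the IL-33 receptor, at 0.378, 0 and 0.146 CPM in spleen and 1.95, 1.07 and 1.25 CPM in tumor (2.89 ± 0.78), a call that was lost without spleen replicate 3 (adjusted p = 0.0503, log2 difference 2.69).

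Genes that keep lymphocytes circulating and bring them into lymphoid organs fell in 12 of 16 cases and rose in 2. S1pr1 (chromosome 3, 115710433 to 115715072, - strand), the receptor by which lymphocytes leave tissues, was at 58.4, 65.7 and 65.2 CPM in spleen and 7.15, 6.05 and 3.18 CPM in tumor, a fall of -3.54 ± 0.28, and S1pr4 fell by -4.81 ± 0.29. The B-cell follicle receptor Cxcr5 was at 103, 89.3 and 98.5 CPM in spleen and 2.22, 1.39 and 0.885 CPM in tumor (-6.01 ± 0.28), and Ccr6 at 31.9, 34.9 and 32.1 CPM in spleen and 0.755, 0.126 and 0.161 CPM in tumor (-6.48 ± 0.45). These 4 receptors were far lower in all tumor libraries.

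S1pr5, the sphingosine receptor that NK cells use to leave bone marrow and lymph nodes, went the other way. It was at 104, 112 and 112 CPM in spleen and 169, 215 and 264 CPM in tumor, with all tumor libraries above all spleen libraries and a rise of 0.98 ± 0.15 (adjusted p = 4.47e-04). Cxcr4, the receptor for CXCL12, was at 11.6, 9.6 and 12.1 CPM in spleen and 46.4, 50.3 and 43.1 CPM in tumor and rose by 2.07 ± 0.15. Receptors for inflamed tissue were divided, with 3 of 11 higher and 3 lower, and 5 higher without tumor replicate 3. Cxcr3, the receptor of interferon-induced chemokines on NK and T cells, was at 12.2, 14.4 and 18.9 CPM in spleen and 1.38, 1.01 and 0.885 CPM in tumor and fell by -3.79 ± 0.30, and Cxcr6, a receptor of tissue-resident lymphocytes, fell by -2.37 ± 0.39. Ccr1, a chemokine receptor of myeloid cells, was at 0.453, 0.413 and 0.73 CPM in spleen and 48.9, 41.4 and 19 CPM in tumor and rose by 6.05 ± 0.48.

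Genes tied to tissue residency and the response to TGF-beta rose in 11 of 21 cases and fell in 4, with a median of 1.3. Nr4a1 (chromosome 15, 101266846 to 101274792, + strand), a nuclear receptor induced by antigen-receptor and stress signals, was at 17.2, 21.7 and 15.3 CPM in spleen and 143, 211 and 152 CPM in tumor, a rise of 3.23 ± 0.20. Its relative Nr4a2 was at 5.44, 7.64 and 5.33 CPM in spleen and 72.9, 81.5 and 34.9 CPM in tumor, a rise of 3.37 ± 0.35. Ldlrad4, an inhibitor of TGF-beta signalling that is itself induced by it, was at 8.31, 4.44 and 7.59 CPM in spleen and 56.2, 54.9 and 68.5 CPM in tumor and rose by 3.13 ± 0.23. All tumor libraries exceeded all spleen libraries in these 3 genes. Other members did not follow Ldlrad4, as Smad7 fell by -1.275 (adjusted p = 0.00116). Skil (0.29, adjusted p = 0.326) and Ski (0.02, adjusted p = 0.909) did not pass. The Nr4a genes are also counted in the immediate-early list below.

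Genes of TGF-beta reception were divided. Tgfbr2, the ligand-binding receptor, was at 177, 182 and 179.8 CPM in spleen and 34.7, 31.2 and 23.7 CPM in tumor, a fall of -2.59 ± 0.15, and the transducer Smad3 at 71.1, 113 and 83.1 CPM in spleen and 22.6, 24.9 and 24.3 CPM in tumor, a fall of -1.89 ± 0.17. The coreceptor Tgfbr3 was at 0.302, 1.34 and 0.876 CPM in spleen and 3.37, 2.08 and 2.41 CPM in tumor and rose by 1.67 ± 0.56 (adjusted p = 0.0257). That call was lost without spleen replicate 1 (1.21, adjusted p = 0.0745), spleen replicate 3 (1.68, adjusted p = 0.0687) or tumor replicate 1 (1.46, adjusted p = 0.0921). The signalling receptor Tgfbr1 did not pass (0.27 ± 0.28, adjusted p = 0.425). Xcl1, a chemokine by which NK cells attract dendritic cells, was at 13.4, 6.81 and 9.42 CPM in spleen and 3.15, 2.33 and 1.81 CPM in tumor and fell by -2.03 ± 0.35. Itgae, the residency integrin CD103, was at 0.982, 2.99 and 1.24 CPM in spleen and 2.97, 1.01 and 3.5 CPM in tumor, with overlapping groups and a log2 difference of 0.56 ± 0.60 that did not pass (adjusted p = 0.432).

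Immediate-early genes, which are switched on within minutes of a signal or of cell handling, rose in 16 of 26 cases and fell in 7. Fosl2, a subunit of AP-1, was at 9.36, 12.2 and 10.1 CPM in spleen and 164, 221 and 173 CPM in tumor (4.15 ± 0.17), and Ier3, an early response gene, at 0.453, 0.413 and 0.146 CPM in spleen and 64.5, 77.1 and 29.3 CPM in tumor (7.4 ± 0.56). Egr3, induced by antigen receptors, was at 24.5, 8.46 and 18 CPM in spleen and 1.73, 4.48 and 1.05 CPM in tumor (-2.86 ± 0.60), while the phosphatase Dusp2 fell by -1.65 ± 0.23 and Btg2, an antiproliferative gene, by -1.16 ± 0.14. Each rise and fall named here was without overlap between the groups.

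Immune checkpoint genes were divided between receptors that appeared in the tumor libraries and receptors that declined. Pdcd1 (chromosome 1, 94038305 to 94052553, - strand), the inhibitory receptor PD-1, was at 0, 1.75 and 1.17 CPM in spleen and 137, 158 and 194 CPM in tumor. Spleen replicate 1 had no count and all tumor libraries were far above the spleen libraries, a rise of 7.47 ± 0.60 (adjusted p = 4.48e-05). Ctla4, a competitor of CD28, was at 0.151, 0.206 and 0.146 CPM in spleen and 7.19, 8.51 and 13.4 CPM in tumor (5.82 ± 0.46), and Lilrb4a, an inhibitory receptor found on myeloid cells, at 20.2, 25.3 and 16.6 CPM in spleen and 1071, 1059 and 345 CPM in tumor (5.32 ± 0.50). Pdcd1 and Ctla4 were highest in tumor replicate 3, as the T-cell markers were, whereas Lilrb4a was lowest there. Of 21 checkpoint receptors and ligands 10 rose and 3 fell.

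Btla, an inhibitory receptor of B and T cells, was at 109.6, 135 and 108 CPM in spleen and 8.03, 7.69 and 11.8 CPM in tumor and fell by -3.67 ± 0.19. Tnfrsf18 (GITR) was at 17.7, 25.6 and 24 CPM in spleen and 7.41, 5.05 and 8.73 CPM in tumor (-1.66 ± 0.25), and Cd96, which binds the same ligand as the NK receptor CD226, at 14.9, 19 and 18.3 CPM in spleen and 5.42, 6.94 and 6.08 CPM in tumor (-1.5 ± 0.20). Lag3 was at 1.13, 0.722 and 1.83 CPM in spleen and 1.6, 1.01 and 2.25 CPM in tumor, with overlapping groups and no call (adjusted p = 0.54). Tigit was at 7.32, 24.8 and 4.53 CPM in spleen and 9.32, 10.7 and 12.5 CPM in tumor, and its difference of -0.15 ± 0.59 did not pass (adjusted p = 0.837). Spleen replicate 2 was far above the other spleen libraries for Tigit, and without it the difference was 0.81 (adjusted p = 0.0409).

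Chemokine genes rose in 20 of 22 tested cases and fell in 2, with a median of 7.78, or 5.72 with genes lacking spleen counts at their bound. Of the 30 genes of this list with a row, 15 had no spleen count. Those of them that were tested passed the expression filter through the tumor libraries alone and could not fall, so the count of rises is partly set by the filter. Without tumor replicate 3, 22 rose. The monocyte attractant Ccl2 (chromosome 11, 82035571 to 82037453, + strand) had no spleen count and stood at 51.2, 59.2 and 13.2 CPM, at least 467-fold higher. Cxcl3, a neutrophil attractant, had 1 count in all spleen libraries together and stood at 183, 161 and 48.2 CPM in tumor, a pooled ratio of 4561-fold (95% counting interval 818 to 180153). Replicate 3 held the lowest level of both. The falls were Ccl5, a chemokine of cytotoxic lymphocytes, at 40.8, 40.8 and 57 CPM in spleen and 5.24, 4.41 and 3.3 CPM in tumor (-3.42 ± 0.23), and Xcl1, given above.

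Of 26 tested cytokine genes 16 rose and 4 fell. In the full list of 34 genes, 12 had no spleen count, and those of them that were tested could not fall. Il10, an anti-inflammatory cytokine, had no spleen counts and stood at 39.6, 43.6 and 7.97 CPM in tumor, at least 344-fold higher. Il6 stood at 19.5, 13.9 and 3.54 CPM and Il12b, a subunit of IL-12 and IL-23, at 21.5, 7.32 and 7.2 CPM, again without spleen counts and at least 144-fold and 147-fold higher. All 3 had far lower levels in tumor replicate 3 than in tumor replicate 1. Ifng, the main cytokine product of NK cells, was at 12.9, 11 and 9.86 CPM in spleen and 3.77, 3.47 and 3.34 CPM in tumor, a fall of -1.67 ± 0.23 (adjusted p = 2.28e-04) with no overlap. Ltb, lymphotoxin beta, was at 187, 154 and 175 CPM in spleen and 2.49, 2.78 and 1.29 CPM in tumor (-6.33 ± 0.26), Lta, lymphotoxin alpha, fell by -4.36 ± 0.30, and Il16, a lymphocyte attractant, by -4.44 ± 0.12.

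Cells sense low oxygen through prolyl hydroxylases that, when oxygen is present, mark the HIF-alpha proteins for destruction. Stable HIF binds DNA at a short core element and raises genes for glucose uptake, glycolysis and vessel growth. In the 250 bases before the start in RefSeq, the core ACGTG, or its reverse complement CACGT, was found in 13 of 21 hypoxia genes with a RefSeq entry (61.9%) and in 9 of 21 glycolysis genes (42.9%), compared with 16.6% of 32817 windows of the same length. The E-box CACGTG contains this core and was present in 6.02% of all windows. The windows of 3 genes described next are shown, 5′ to 3′ on the strand of the gene, because they carry the core at different numbers of places: 1 in Egln3 (chr12:54203875-54204124, - strand), 3 in Ldha (chr7:46845554-46845803, + strand) and 2 in Pgk1 (chrX:106186850-106187099, + strand), on RefSeq build GRCm38.p6. The Ldha window lies wholly inside the deposited span of that gene, which begins at an earlier start, and the other windows lie outside. Capitals mark the core or, where both strands match, the E-box that holds it.
Egln3: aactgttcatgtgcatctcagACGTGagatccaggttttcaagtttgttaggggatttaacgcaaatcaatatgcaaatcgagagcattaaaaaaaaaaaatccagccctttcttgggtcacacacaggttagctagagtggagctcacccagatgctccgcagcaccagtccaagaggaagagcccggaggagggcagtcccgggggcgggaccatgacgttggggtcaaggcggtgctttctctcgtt
Ldha: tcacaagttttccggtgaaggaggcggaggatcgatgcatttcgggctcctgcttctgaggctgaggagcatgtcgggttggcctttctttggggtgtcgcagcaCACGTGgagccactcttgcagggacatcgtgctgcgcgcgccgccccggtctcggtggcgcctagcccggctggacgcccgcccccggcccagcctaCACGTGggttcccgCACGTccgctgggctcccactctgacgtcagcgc
Pgk1: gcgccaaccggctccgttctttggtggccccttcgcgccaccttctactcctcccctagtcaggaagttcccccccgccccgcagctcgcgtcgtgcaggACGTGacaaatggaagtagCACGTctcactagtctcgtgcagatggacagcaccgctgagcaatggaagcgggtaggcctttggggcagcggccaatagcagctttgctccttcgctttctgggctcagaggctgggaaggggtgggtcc

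Hypoxia response genes rose in 20 of 25 cases and none fell, with a median of 2.23. Egln3 (chromosome 12, 54178981 to 54203860, - strand), a prolyl hydroxylase that HIF itself induces, was at 0.906, 2.27 and 0.584 CPM in spleen and 178, 239 and 296 CPM in tumor, a rise of 7.66 ± 0.43 (adjusted p = 8.18e-06). Vegfa, the growth factor of blood vessels, was at 5.59, 6.81 and 7.3 CPM in spleen and 544, 480.3 and 308 CPM in tumor, a rise of 6.08 ± 0.26. Every tumor library was far above every spleen library for both, and replicate 3 was the highest for Egln3 and the lowest for Vegfa. P4ha2, a collagen prolyl hydroxylase, had no spleen counts and stood at 20.9, 8.7 and 9.7 CPM, at least 159.8-fold higher. Hif1a, the oxygen-regulated subunit, was at 129, 134 and 133 CPM in spleen and 575, 406 and 376 CPM in tumor and rose by 1.78 ± 0.16. The count of 0 falls is edgeR's, with 1 at an unadjusted p under 0.05. DESeq2 called 1 fall, as did edgeR without tumor replicate 2.

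Glycolysis genes rose in 20 of 22 cases by edgeR, and none fell by edgeR, DESeq2 or limma or at an unadjusted p under 0.05. Ldha, which makes lactate, was at 146, 124 and 144 CPM in spleen and 856, 751 and 852 CPM in tumor, a rise of 2.57 ± 0.10 (adjusted p = 2.06e-07). Pgk1, an ATP-producing kinase of the pathway, was at 30.5, 36.9 and 33.8 CPM in spleen and 338, 255 and 294 CPM in tumor, a rise of 3.13 ± 0.14. The tumor libraries lay close together in both, and tumor replicate 3 was within the range of the others for each. Slc16a1, a transporter that carries lactate and pyruvate, was at 4.53, 4.13 and 6.57 CPM in spleen and 116, 109 and 149.5 CPM in tumor (4.61 ± 0.21), and Slc16a3, a lactate exporter, at 1.74, 1.03 and 0.438 CPM in spleen and 82.7, 69.5 and 33.4 CPM in tumor (5.85 ± 0.54). Hk2, the inducible hexokinase, was at 12.9, 8.25 and 11.5 CPM in spleen and 154, 132 and 104 CPM in tumor (3.56 ± 0.21), and Pkm, pyruvate kinase, at 416, 371 and 387 CPM in spleen and 2062, 1674 and 1816 CPM in tumor (2.24 ± 0.10).

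**Figure D4:**
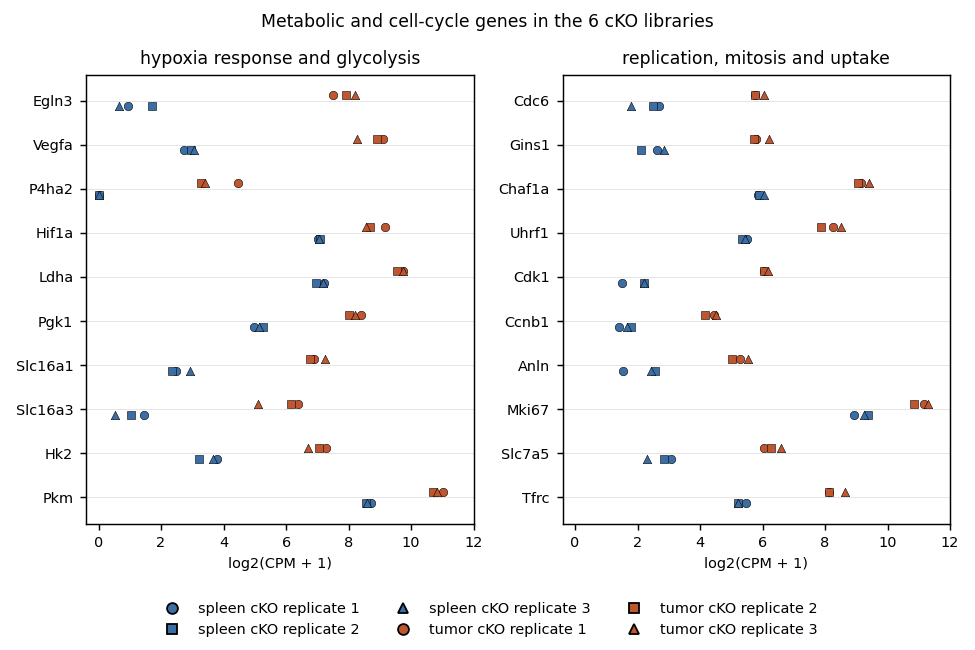
Level of hypoxia and glycolysis genes (left) and of replication, mitosis and uptake genes (right) in each library, as log2(CPM + 1), with spleen cKO in blue, tumor cKO in orange and 1 symbol per replicate. Every tumor library was above every spleen library for all genes drawn, and P4ha2 was at 0 in all spleen libraries.

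Genes for amino acid and iron uptake and for one-carbon metabolism rose in 21 of 22 cases, and none fell by edgeR, DESeq2 or limma or at an unadjusted p under 0.05. Slc7a5 (chromosome 8, 121881150 to 121907694, - strand), a chain of the leucine transporter LAT1, was at 7.32, 6.19 and 3.94 CPM in spleen and 65.6, 76.3 and 95.9 CPM in tumor, a rise of 3.77 ± 0.25. Tfrc, the transferrin receptor that takes up iron, was at 43.2, 35.9 and 36.3 CPM in spleen and 276, 277 and 399.9 CPM in tumor, a rise of 3.04 ± 0.17. Both were highest in tumor replicate 3. Slc7a11, the cystine importer, had no spleen counts and stood at 156, 122 and 57.5 CPM, at least 1330.0-fold higher, and was lowest in replicate 3. In this list, replicate 3 was the highest tumor library for 18 of 22 genes.

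DNA replication genes are driven in S phase by E2F factors. In the 250 bases before the start, the core TTCCCGC, or its reverse complement GCGGGAA, was found in 7 of 25 replication genes with an entry (28.0%) and in 3.82% of all windows. It was found in 1 of 21 hypoxia genes (4.76%) and in 3 of 21 glycolysis genes (14.3%). The windows of Chaf1a (chr17:56040166-56040415, + strand) and Uhrf1 (chr17:56303087-56303336, + strand) are shown, 5′ to 3′, because each carries the core once, in capitals. The last 16 bases of the Uhrf1 window fall inside its deposited span. A match describes these letters only.
Chaf1a: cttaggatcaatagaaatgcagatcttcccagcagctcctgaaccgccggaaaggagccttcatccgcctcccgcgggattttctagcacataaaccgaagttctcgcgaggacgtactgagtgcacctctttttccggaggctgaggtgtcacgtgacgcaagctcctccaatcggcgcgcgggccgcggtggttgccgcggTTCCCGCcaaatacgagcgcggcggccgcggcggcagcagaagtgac
Uhrf1: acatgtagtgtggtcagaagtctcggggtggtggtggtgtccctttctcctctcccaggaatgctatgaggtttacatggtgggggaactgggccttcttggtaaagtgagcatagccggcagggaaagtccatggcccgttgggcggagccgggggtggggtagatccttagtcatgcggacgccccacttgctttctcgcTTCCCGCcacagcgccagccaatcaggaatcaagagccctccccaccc

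All 30 replication and S-phase genes rose, with a median of 1.72. Cdc6 (chromosome 11, 98907801 to 98923940, + strand), which loads the replicative helicase, was at 5.44, 4.64 and 2.48 CPM in spleen and 52.7, 52.7 and 65.4 CPM in tumor, a rise of 3.77 ± 0.27. Gins1, a part of that helicase, was at 5.21, 3.3 and 6.13 CPM in spleen and 53.9, 52 and 72.4 CPM in tumor, a rise of 3.59 ± 0.24, and the histone chaperone subunit Chaf1a was at 56.5, 57.6 and 64.5 CPM in spleen and 569, 526 and 677 CPM in tumor, a rise of 3.31 ± 0.12. Uhrf1, which maintains DNA methylation at replication forks, was at 43.9, 39.2 and 42 CPM in spleen and 303, 231 and 359.6 CPM in tumor and rose by 2.84 ± 0.16. These 4 genes had their highest level in tumor replicate 3, and no tumor library overlapped the spleen range. Without replicate 3, 30 of the genes rose, with a median of 1.6.

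Of 30 genes of G2 and mitosis 29 rose, and none fell by any of these tools or at an unadjusted p under 0.05. Cdk1, the kinase that starts mitosis, was at 1.81, 3.61 and 3.65 CPM in spleen and 65.6, 65 and 71 CPM in tumor, a rise of 4.48 ± 0.24. Its partner Ccnb1 was at 1.66, 2.48 and 2.19 CPM in spleen and 20.9, 16.9 and 22 CPM in tumor, a rise of 3.25 ± 0.24, and Anln, a scaffold of the dividing furrow, at 1.89, 4.85 and 4.38 CPM in spleen and 37.7, 31.5 and 45.2 CPM in tumor, a rise of 3.38 ± 0.32. Mki67, the proliferation antigen Ki-67, was at 486, 669 and 599.8 CPM in spleen and 2273, 1831 and 2511 CPM in tumor and rose by 1.92 ± 0.15. Spleen libraries held proliferation transcripts too, as the Mki67 level there showed. Without tumor replicate 3, 29 genes of the list rose.

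All 13 protein-coding mitochondrial genes rose, with a median of 1.5. The complex I gene mt-Nd1 was at 779, 804 and 743 CPM in spleen and 2332, 3477 and 2332 CPM in tumor (1.81 ± 0.16), and mt-Co1 of complex IV at 2865, 2826 and 3032 CPM in spleen and 5869, 7568 and 4705 CPM in tumor (1.06 ± 0.16). Tumor replicate 2 was the highest library for mt-Co1 and mt-Nd1. The larger fitted changes of mt-Co2 (6.42 ± 0.45) and mt-Atp6 (6.05 ± 0.39) are uncertain. Their spleen levels of 0.151, 0.206 and 0.292 and 0.982, 0.619 and 0.584 CPM were far under those of mt-Nd1 and mt-Co1. By the fitted changes, their tumor levels were also far under those of mt-Nd1 and mt-Co1. Near-identical nuclear copies can take such reads. The fitted changes of mt-Co3 (5.10) and mt-Atp8 (5.12) stood apart as well, against 0.96 to 2.02 for the remaining mitochondrial genes. The count of 13 rises includes all of these outlying genes. Nuclear genes of oxidative phosphorylation rose in 37 of 40 cases with a median of 1.19. Cox5b was at 76.9, 65.2 and 81.5 CPM in spleen and 417, 533 and 536 CPM in tumor (2.73 ± 0.13), and Cox6c, likewise of complex IV, at 37.8, 36.9 and 39.3 CPM in spleen and 218, 234 and 286 CPM in tumor (2.69 ± 0.13). The tumor libraries lay well above the spleen libraries in both.

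Cholesterol synthesis genes rose in 16 of 23 tested cases, with a median of 1.08. The demethylase Cyp51 was at 18.1, 12.7 and 19.1 CPM in spleen and 89, 86 and 116 CPM in tumor (2.54 ± 0.19). Srebf2, the factor that drives this pathway, was the only fall, at 93.7, 86.9 and 102 CPM in spleen and 70.0, 62.1 and 67.1 CPM in tumor (-0.51 ± 0.11). In the list of the unfolded protein response and the ATF4 stress response, 15 of 23 rose and 3 fell. Asns, asparagine synthetase and a target of ATF4, was at 0.906, 0.619 and 0.146 CPM in spleen and 73.6, 53.7 and 84.3 CPM in tumor (6.99 ± 0.40), and the stress factor Atf3 at 1.89, 1.75 and 0.584 CPM in spleen and 157, 264 and 63.1 CPM in tumor (6.86 ± 0.71). The falls were of chaperones of the endoplasmic reticulum, Calr at 3007, 2742 and 2694 CPM in spleen and 1974, 1857 and 1562 CPM in tumor (-0.65 ± 0.10), Pdia4 (-0.52 ± 0.09) and Dnajc3 (-0.77 ± 0.10). Other chaperones and folding factors of this compartment rose, with Hspa5, the abundant chaperone BiP, at 631, 553 and 614 CPM in spleen and 1128, 1096 and 1072 CPM in tumor (0.87 ± 0.08). Dnajb9 (0.74 ± 0.20), Sdf2l1 (1.0 ± 0.23), Creld2 (0.90 ± 0.13) and Manf (0.93 ± 0.12) rose as well, so its chaperones had no common direction.

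Interferon-stimulated genes showed no common direction, with 10 of 32 higher, 9 lower and a median of -0.19. Rsad2 (chromosome 12, 26442753 to 26456452, - strand), the antiviral enzyme viperin, was at 7.93, 7.64 and 6.28 CPM in spleen and 67.2, 46.1 and 38.6 CPM in tumor (2.8 ± 0.23), and Isg15, a ubiquitin-like modifier, at 12.4, 9.29 and 17.3 CPM in spleen and 86, 74 and 34.6 CPM in tumor (2.31 ± 0.39). Trim30a was at 193, 126 and 184 CPM in spleen and 36.5, 29.5 and 17.8 CPM in tumor (-2.59 ± 0.29), and Gbp7, a guanylate-binding protein, at 118, 127 and 132 CPM in spleen and 36.5, 27.7 and 18.1 CPM in tumor (-2.2 ± 0.23). All 4 were without overlap, and tumor replicate 3 was the lowest tumor library for each of them. Across the list it was the lowest for 28 of 32 genes.

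MHC class II genes, which present antigen on B cells, dendritic cells and macrophages, fell in 10 of 14 cases and rose in 1. H2-Ob, a subunit of the B-cell regulator H2-O, was at 254, 221 and 239 CPM in spleen and 4.62, 2.4 and 1.81 CPM in tumor (-6.33 ± 0.34), and H2-DMb2 at 443, 439.9 and 435 CPM in spleen and 15.6, 6.24 and 3.62 CPM in tumor (-5.69 ± 0.54). The rise was Lgmn, the endosomal protease legumain, at 54.4, 46.3 and 49.5 CPM in spleen and 159, 144 and 59.9 CPM in tumor (1.27 ± 0.34). Without tumor replicate 3, 3 rose and 11 fell. The summed level was 10684 to 11380.4 CPM in spleen and 7628, 5715 and 3185 CPM in tumor, the lowest in replicate 3. The B-cell sum fell and the macrophage sum rose beside these values, and their parts in them were not tested.

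Genes of lysosomes, complement and matrix were higher in the tumor libraries. Of 24 lysosome genes 17 rose and 2 fell. Ctsl, cathepsin L, was at 5.29, 10.9 and 6.86 CPM in spleen and 396, 343 and 145 CPM in tumor (5.28 ± 0.48), and Tfeb, a factor that drives lysosome genes, at 76.9, 61.4 and 71.6 CPM in spleen and 17.7, 17.5 and 23 CPM in tumor (-1.85 ± 0.16). Complement genes rose in 11 of 17 cases and fell in 2, or 13 and 2 without tumor replicate 3. The anaphylatoxin receptor C3ar1 had 3 counts over all spleen libraries and stood at 28, 30.7 and 11.5 CPM in tumor, a pooled ratio of 271-fold (95% counting interval 92.5 to 1315). Cfb, factor B of the alternative pathway, was at 1.81, 2.27 and 0.876 CPM in spleen and 139.9, 93 and 58.9 CPM in tumor (5.91 ± 0.46), and the regulator Cd55 at 511, 425 and 469.5 CPM in spleen and 9.99, 7.38 and 2.66 CPM in tumor (-6.14 ± 0.47). Tumor replicate 3 was the lowest tumor library for Ctsl, C3ar1, Cfb and Cd55.

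Matrix and protease genes rose in 20 of 22 tested cases, with none lower by the same measures and a median of 5.92. In the full list of 23 genes, 4 had no spleen count, and those of them that were tested could not fall. Without tumor replicate 3, 23 rose, as more genes of the list were tested. Mmp12, the macrophage elastase, had no spleen counts and stood at 202, 81.5 and 45 CPM in tumor, at least 1337-fold higher. Adamts1, a protease of proteoglycans, stood at 122, 64.1 and 124 CPM and Timp1, an inhibitor of metalloproteinases, at 15.1, 14.2 and 3.86 CPM, also without spleen counts. They were at least 1262-fold and 128-fold higher. Replicate 3 was the lowest tumor library for Mmp12 and Timp1 but not for Adamts1.

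Over the whole T-cell list, with the 4 defining markers above included, 13 of 18 rose and 2 fell, or 11 and 3 without tumor replicate 3. Lat (chromosome 7, 126363824 to 126369570, - strand), the adaptor of T-cell receptor signalling, was at 15.2, 13.5 and 15.9 CPM in spleen and 201, 188 and 262 CPM in tumor, a rise of 3.86 ± 0.16. Thy1, a surface protein of T cells, some innate lymphocytes and fibroblasts, was at 152, 158 and 169 CPM in spleen and 890.1, 749.5 and 1055 CPM in tumor, a rise of 2.49 ± 0.13. Trat1, an adaptor that stabilises the receptor complex, was at 1.06, 2.27 and 2.04 CPM in spleen and 22.6, 25.3 and 32.9 CPM in tumor, a rise of 3.93 ± 0.30. Each was highest in tumor replicate 3 and exceeded the spleen libraries in all tumor libraries. Cd247, the zeta chain that NK and T cells share, was at 140.4, 165 and 155 CPM in spleen and 61.4, 61.7 and 71.1 CPM in tumor and fell by -1.24 ± 0.11, and Trbc1, a constant segment of the beta chain, at 31.2, 37.8 and 28.8 CPM in spleen and 4.31, 3.41 and 3.54 CPM in tumor (-3.11 ± 0.19).

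The subset markers Cd4 and Cd8a were low in both groups. Cd4 was at 12.3, 7.74 and 10.1 CPM in spleen and 10.9, 3.66 and 13.8 CPM in tumor and Cd8a at 0.453, 5.78 and 0.438 CPM in spleen and 1.33, 1.39 and 2.66 CPM in tumor, with overlapping groups. Their log2 differences of -0.08 ± 0.44 and -0.25 ± 0.96 did not pass (adjusted p = 0.886 and 0.83). Spleen replicate 2 was the highest library for Cd8a, and without it Cd8a was higher in tumor by 1.93 (adjusted p = 0.0286). Cd4 had a difference of 0.32 without tumor replicate 2 (adjusted p = 0.346) and of 0.04 without spleen replicate 1 (adjusted p = 0.956). Cd8b1, the other CD8 chain, was at 0, 0.619 and 0.146 CPM in spleen and 0.799, 1.26 and 3.46 CPM in tumor and rose by 2.97 ± 0.99 (adjusted p = 0.0259). That call was lost without spleen replicate 1 (2.28, adjusted p = 0.0749), spleen replicate 3 (2.64, adjusted p = 0.0998) or tumor replicate 3 (2.11, adjusted p = 0.0995). Foxp3, the factor of regulatory T cells, was at 11.3, 8.46 and 9.71 CPM in spleen and 13.9, 14 and 8.13 CPM in tumor, with overlapping groups (adjusted p = 0.359). Of 9 tested regulatory T-cell markers 5 rose and 1 fell. Besides Ctla4, these rises included Gpr83, a receptor of regulatory T cells, which had no spleen count and stood at 1.42, 0.757 and 1.29 CPM in tumor, at least 14.1-fold higher. Nrp1, which macrophages also carry, was at 3.02, 4.95 and 2.19 CPM in spleen and 17.8, 17.6 and 6.8 CPM in tumor (2.07 ± 0.45), and the factor Ikzf2 (Helios) at 21.9, 19 and 19.8 CPM in spleen and 49, 56.6 and 67.5 CPM in tumor (1.51 ± 0.15).

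Constant segments of the gamma-delta receptor were among the clear rises. Tcrg-C2 was at 7.1, 7.43 and 6.64 CPM in spleen and 109, 116 and 148 CPM in tumor (4.14 ± 0.16), and Tcrg-C1 at 3.78, 3.41 and 2.56 CPM in spleen and 43.1, 42.3 and 50.3 CPM in tumor (3.8 ± 0.20). Trdc, the constant segment of the delta chain, was at 11.8, 10.1 and 6.94 CPM in spleen and 0.755, 0.568 and 0.644 CPM in tumor, a fall of -3.85 ± 0.35 (adjusted p = 1.61e-05). Gamma and delta segments thus went in opposite directions, and the gamma segments are similar in sequence, so reads may be shared between them.

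Markers of other cells were low or divided. Neutrophil markers rose in 5 of 8 tested cases, and S100a9 was at 0.604, 9.29 and 0.146 CPM in spleen and 43.2, 57 and 19.8 CPM in tumor. Spleen replicate 2 was the highest spleen library for S100a9. Its rise of 3.7 ± 1.11 was lost without any 1 tumor library, at 3.65, 3.35 and 4.07 without replicates 1, 2 and 3 (adjusted p = 0.0895, 0.0775 and 0.0722). The number of neutrophil markers that rose was 3 without tumor replicate 1 and 3 without tumor replicate 2. S100a8 was at 0.302, 0.206 and 0.146 CPM in spleen and 3.24, 4.92 and 0.926 CPM in tumor (3.74 ± 0.77), and Ly6g had no spleen count and stood at 0.0888, 0.252 and 0.0805 CPM in tumor, too low to be tested.

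Of 11 dendritic-cell markers 5 rose and 1 fell, with Flt3 at 1.59, 1.44 and 1.24 CPM in spleen and 3.64, 3.59 and 5.15 CPM in tumor (1.53 ± 0.37) and Zbtb46 at 6.42, 9.49 and 3.87 CPM in spleen and 9.19, 2.27 and 3.26 CPM in tumor. Zbtb46 did not pass (adjusted p = 0.542), but it was lower by -1.22 without tumor replicate 1 (adjusted p = 0.0419), and the number of falls in the list was then 4. The mast cell protease Cpa3 was at 0, 0.206 and 0.584 CPM in spleen and 2.44, 1.39 and 2.37 CPM in tumor (2.91 ± 0.82). Of the erythroid genes, Hba-a1 was at 6.19, 11.1 and 8.76 CPM in spleen and 3.37, 2.71 and 4.59 CPM in tumor (-1.28 ± 0.32) and Alas2, the first enzyme of heme synthesis in erythroid cells, at 0.906, 1.34 and 2.04 CPM in spleen and 0.932, 1.14 and 0.684 CPM in tumor, with no call (adjusted p = 0.294). These genes were at low levels in every library.

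Vessel and stromal markers were scarce in spleen libraries. Of 9 tested endothelial markers 8 rose and 1 fell, or 6 and 1 without tumor replicate 1, and all 8 tested fibroblast markers rose. No spleen count was found for 5 of the 13 listed endothelial and 2 of the 12 listed fibroblast genes, and any of these that were tested could not fall. Cdh5, a junction protein of endothelium, was at 0.68, 0 and 1.9 CPM in spleen and 9.59, 19.8 and 3.3 CPM in tumor (3.56 ± 0.98), and Pecam1, which leukocytes also carry, at 182, 147 and 169 CPM in spleen and 57.2, 56.1 and 48.4 CPM in tumor (-1.62 ± 0.12). Col1a1, a fibrillar collagen chain, was at 0.906, 0.825 and 0.73 CPM in spleen and 14.7, 11.7 and 5.15 CPM in tumor (3.67 ± 0.46), and Pdgfra, a receptor of fibroblasts, had 2 spleen counts in all and stood at 2.26, 1.26 and 1.17 CPM in tumor. Thy1 made up most of the summed level of the fibroblast list, which was 154 to 171 CPM over the spleen libraries and 810.2 to 1083 CPM over the tumor libraries. Epcam, of epithelium, was at 3.47, 6.6 and 5.4 CPM in spleen and 2.0, 0.631 and 0.644 CPM in tumor (-2.22 ± 0.53), while Cdh1 (E-cadherin) was at 0.906, 0.825 and 0.73 CPM in spleen and 9.59, 2.65 and 3.06 CPM in tumor (2.63 ± 0.58) and Krt8 at 0.453, 0.206 and 0.292 CPM in spleen and 3.91, 0.883 and 0.523 CPM in tumor, too low to be tested.

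Melanocyte and melanoma markers rose in 3 of 4 tested cases and fell in 1, and their sum was 106, 62.9 and 26.2 CPM in the tumor libraries, against 6.34 to 6.81 CPM over the spleen libraries. Gpnmb, a glycoprotein of melanocytes that macrophages also make, was at 0.604, 1.86 and 0.438 CPM in spleen and 88.3, 43.1 and 19 CPM in tumor (5.79 ± 0.78), and Mitf, the melanocyte factor also used by myeloid cells, at 0.604, 0.206 and 0.584 CPM in spleen and 15.2, 14.1 and 3.66 CPM in tumor (4.48 ± 0.67). Mc1r, the melanocortin receptor, had no spleen count and stood at 1.42, 4.67 and 2.98 CPM in tumor, at least 34.8-fold higher. The pigment gene Pmel was at 5.13, 4.64 and 5.48 CPM in spleen and 1.29, 1.07 and 0.563 CPM in tumor (-2.39 ± 0.42), and Dct, another pigment gene, had no count in any of the 6 libraries. The part of such cells in the changes of other genes was not tested.

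The tissue difference was then set beside the same difference in WT mice, which shares no library with it. Across 14824 genes tested in both genotypes, the fitted log2 differences had a Pearson r of 0.86 and a Spearman rho of 0.82, given as a description, since genes are not replicates. Of these genes, 9640 were called in cKO, 8756 in WT (where 59.1% of all genes tested were called) and 6833 in both, which is 70.9% of the cKO calls and 78.0% of the WT calls. The direction was the same for 6634 of them and opposite for 199. In a fit of all 12 libraries, the difference of the tissue differences passed for 3072 of 16831 genes, or 18.3%, with 1293 (7.68%) higher in cKO and 1779 (10.6%) lower. Without the factor for library composition the split was 1891 higher and 1369 lower, as the median of all genes moved from -0.10 to 0.06. Without tumor cKO replicate 3, 834 genes were higher. Tumor WT replicate 3 stood apart in B-cell RNA, with a B-cell sum of 2271 CPM on the scale of all 12 libraries, against 329 and 357 CPM in tumor WT replicates 1 and 2. Immunoglobulin genes took 1.25% of its counts, against 0.0641% and 0.0273%. Its part in the differences between genotypes was not tested.

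**Figure D5:**
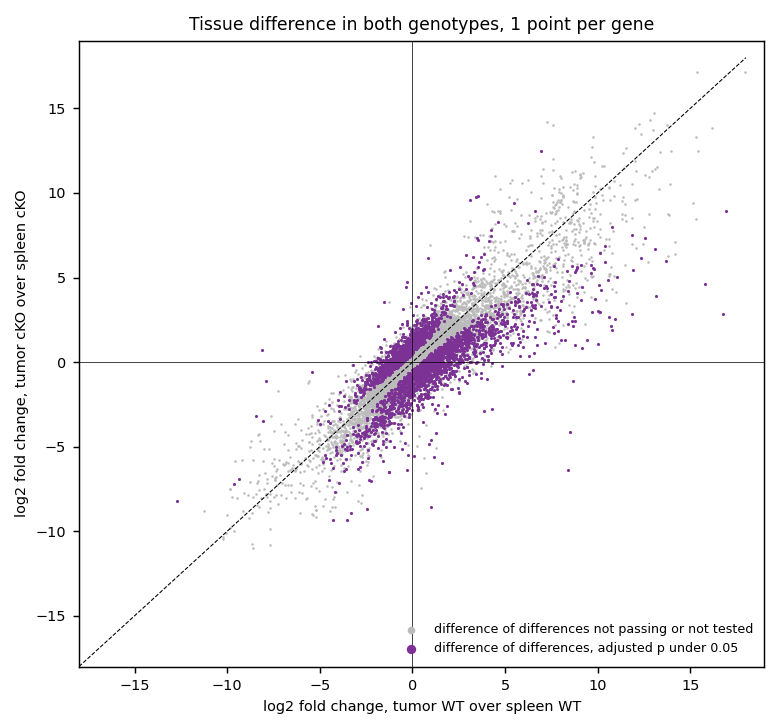
Fitted log2 fold change of tumor over spleen in WT (x axis) and in cKO (y axis), 1 point per gene tested in both, with genes whose tissue differences differed between the genotypes (adjusted p under 0.05) in purple and the line of equal change dashed. The 6634 genes called in both genotypes with the same direction lie at the lower left and upper right, and the 199 called with opposite directions at the upper left and lower right.

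Many macrophage genes had a smaller tissue difference in cKO than in WT. Of 20 macrophage and monocyte markers tested in this fit, 13 were lower in cKO by edgeR's test of the difference and 0 higher (0 at an unadjusted p under 0.05 and 0 by DESeq2). For lysosome genes the counts were 19 lower and 0 higher of 24 (0 higher unadjusted, 0 by DESeq2), and for complement genes 8 and 0 of 17 (1 higher unadjusted, 0 by DESeq2). On the scale of all 12 libraries the macrophage sum was 16066, 30303 and 21251 CPM in tumor WT, against 5495, 4813 and 1912 CPM in tumor cKO, so every tumor WT library was above every tumor cKO library. Cd163, by which macrophages take up hemoglobin, was at 12.5, 18.8 and 11.3 CPM in spleen cKO and 10.3, 11.4 and 8.98 CPM in tumor cKO. In WT it was at 7.44, 6.93 and 5.95 CPM in spleen and 476, 624 and 741 CPM in tumor. Its tissue difference was lower in cKO by -6.97 ± 0.31 (adjusted p = 1.17e-07).

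By the naming rule, the genes whose tissue difference was lowest in cKO relative to WT were Chil3, Slc7a2, Fabp4, F10 and Nrg1. The chitinase-like gene Chil3 of alternatively activated macrophages was at 177, 1821 and 359.7 CPM in tumor WT and 10.8, 6.13 and 3.8 CPM in tumor cKO. The arginine transporter Slc7a2 was at 153, 877 and 175 CPM in tumor WT and 73.8, 32.1 and 13 CPM in tumor cKO. F10, coagulation factor X, was at 972, 598 and 1033 CPM in tumor WT and 467, 384 and 155 CPM in tumor cKO. Fabp4, a carrier of fatty acids, was at 26.4, 135 and 27 CPM in tumor WT and 17.7, 12 and 5.96 CPM in tumor cKO, and the growth factor Nrg1 at 79.7, 99.7 and 104 CPM and 24.7, 15.8 and 10.1 CPM. Tumor WT replicate 2 was far above the other tumor libraries for Chil3, Slc7a2 and Fabp4 but the lowest tumor WT library for F10. All 5 had no count in the spleen WT libraries, so their fitted differences depend on the prior count. These differences also take in the spleen levels of cKO, which are not given here. The tumor levels alone therefore do not show their size or rank. The tumor WT libraries were above every tumor cKO library for each of these genes, a separation that the naming rule requires.

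Angptl2, Amy1, Sgip1, H2-Q2 and Tnnt1 were the largest in the other direction. The secreted protein gene Angptl2 was at 16.2, 31 and 14.4 CPM in tumor WT and 35.3, 37.7 and 49.7 CPM in tumor cKO. The endocytic gene Sgip1 was at 16.8, 14.9 and 13.7 CPM in tumor WT and 44, 50.8 and 51.7 CPM in tumor cKO, and Tnnt1, a troponin of slow muscle, at 31.2, 19.3 and 26.5 CPM and 83.3, 69.4 and 105 CPM. Every tumor cKO library was above every tumor WT library for these 3 genes, a separation that the naming rule requires. Angptl2 had no count in the spleen cKO libraries, so its fitted difference depends on the prior count. Here too the spleen levels enter the difference, and the tumor levels alone do not show its size. The amylase gene Amy1 was at 1.34, 0.423 and 1.69 CPM in tumor WT and 94, 20.5 and 24.8 CPM in tumor cKO. The class I gene H2-Q2 was at 4.71, 6.01 and 3.44 CPM in tumor WT and 56.2, 30.7 and 58.1 CPM in tumor cKO. Both have near-identical relatives, so these levels are uncertain.

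Cell-cycle genes differed toward cKO. Of 30 replication genes, 21 were higher in cKO by edgeR's test of the difference and 0 lower (0 at an unadjusted p under 0.05 and 0 by DESeq2). Of 30 mitosis genes 9 were higher and 0 lower (1 unadjusted and 1 by DESeq2), or 21 higher without tumor WT replicate 2. Of 18 T-cell markers 3 were higher and 0 lower (3 unadjusted and 3 by DESeq2). Of 32 NK receptor and adaptor genes, 14 were lower in cKO and 1 higher. That number of lower NK genes was the least stable of these counts, at 9 without the factor for library composition, 5 without spleen WT replicate 2 or without tumor cKO replicate 3, and 19 without tumor WT replicate 2. On the 12-library scale the NK sum was 772, 924 and 776 CPM in tumor WT and 340.4, 310.1 and 223 CPM in tumor cKO.

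Gzmb had a tissue difference of -0.23 ± 0.47 in WT and -2.37 ± 0.27 in cKO, and the differences differed by -2.16 ± 0.61 (adjusted p = 0.0325). That call held in 7 of 16 other settings, with adjusted p-values up to 0.0971. S1pr5 had a tissue difference of -0.19 ± 0.18 in WT, and its difference between genotypes of 1.15 ± 0.25 (adjusted p = 0.00899) was called in all 16. The macrophage, NK and T-cell transcripts of the tumor libraries differed between the genotypes beside these results, and their part in them was not tested.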

How the data were processed

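Libraries were made from RNA extracted with TRIzol, per the labels' protocols. TopHat2 2.0.6 and mm10 are named in the submitters' processing notes. For the counting program, strand setting and annotation, the sources used here name nothing. The deposited table of the authors gives whole-number read counts for 33100 gene rows, and a second one gives RPKM, which equalled counts per length and library total within a tolerance of 0.001 in 100% of nonzero values. Between 70.3% and 72.4% of counts from 1 to 49 were even in the 6 cKO libraries, as when both mates of a pair are counted, so counting intervals are too narrow and cover counting error only. Deposited positions were checked against GENCODE release M21 of GRCm38, where 31640 of 31654 matched symbols overlapped.

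From the counts, edgeR 4.0.16 in R 4.3.3 fitted spleen cKO and tumor cKO alone (filterByExpr, TMM scaling, robust quasi-likelihood F-test, two-sided, Benjamini-Hochberg over all genes tested). The SE is the log2 fold change over the square root of F. All 12 libraries were fitted with 1 mean per group to test the difference of the tissue differences, with 8 residual degrees of freedom. A gene without counts in a group is compared with a floor of 3 counts over the group. Ratios of genes with 1 to 3 counts have a 95% exact counting interval. The edgeR fit of tumor cKO against spleen cKO was tested on simulated data with 200 changed genes. The other fits were not tested in this way, and changes as broad as those found here were not simulated. Alternatives were DESeq2 1.42.0, limma 3.58.1 on log2(RPKM + 0.1) and log2(RPKM + 1), other scaling, other filters (none, or 1 CPM in 3 libraries), a minimum fold of 2, all 12 libraries, a replicate block and each library left out in turn. For the genotypes these were DESeq2, library totals alone, no filter, the block and each library left out.

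The members and the 41 gene lists (26 of function, 15 of cell type markers, 818 entries, 6 without a row) were chosen with earlier results of these data known, so lists are described by counts and medians. Named genes were, with log2 CPM averaging 2 or more, groups not overlapping and no predicted, immunoglobulin or receptor segments, the 12 largest rises and 12 largest falls. Added were the 12 of smallest adjusted p, the 5 largest differences between genotypes in each direction (tumor groups not overlapping), the 3 largest rises and falls of lists, and defining markers. Klrk1, Prf1, Gzmb, Il2rg, Il15ra, S1pr1, Itgae, Tgfbr1, Tgfbr3, Hspa5, Dnajb9, Sdf2l1, Creld2, Manf, Cd8b1, Lag3, Tigit, Tyrobp, Fcer1g, Stx11, Ifng, Hif1a, Ldha, Pgk1, Hk2, Pkm, Uhrf1, Mki67, mt-Nd1, mt-Co1, Thy1, Cd4, Cd8a, Foxp3 and Cd163 were chosen after their values were seen. Smad7, Skil, Ski and mt-Co3 were likewise chosen after their values were seen. Promoter windows are from RefSeq GRCm38.p6. The targeted gene and some genes of the lists are not reported by name here.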

Additional observations from a re-analysis of the deposited data

Results flagged for a closer look

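For 65 genes named above, the tissue difference in cKO differed from that in WT by edgeR's interaction test over all 12 libraries (Benjamini-Hochberg adjusted p under 0.05). Values are log2 differences, cKO minus WT, so a negative value is a lower tumor over spleen ratio in cKO. Of these genes 43 were lower and 22 higher in cKO. They are listed because they passed this test, and some were named for the size of this difference. These counts therefore cannot be set against the 10.6% lower and 7.68% higher among all genes tested. Among macrophage, lysosome and other myeloid genes the difference was -3.20 for Adgre1, -4.20 for C1qa, -6.97 for Cd163, -3.65 for Csf1r, -4.40 for Ctsl, -3.22 for Lgmn and -3.36 for Lyz2. Genes shared by NK and myeloid cells had -1.33 for Fcer1g, -2.60 for Fcgr3, -1.52 for Tyrobp, -1.86 for Lamp1 and -1.08 for Srgn. For NK, cytotoxic and homing genes it was -2.16 for Gzmb, -1.65 for Ctsw, -1.01 for Ccl5, -0.76 for Il18rap, -1.73 for Tbx21, 1.28 for Klra1, -1.85 for S1pr4 and 1.15 for S1pr5. Cytokine and TGF-beta signalling genes had -1.75 for Cish, -1.02 for Il2rg, -0.87 for Jak1, -1.49 for Tgfbr2 and 1.25 for Ldlrad4. For T-lineage genes it was 1.80 for Bcl11b, 1.25 for Gata3, 1.68 for Lat, 1.40 for Thy1 and -2.30 for Trdc. Btla, a receptor of B and T cells, had 1.32. Genes of proliferation had 1.49 for Chaf1a, 1.90 for Gins1, 1.26 for Mki67 and 1.12 for Uhrf1. Metabolic genes had -1.77 for Hk2, -1.79 for Vegfa, 0.64 for Cox6c, 1.17 for Cyp51 and 0.79 for Srebf2. For stress, early response and interferon genes it was -0.87 for Calr, -1.05 for Dnajc3, -1.38 for Dnajb9, -0.89 for Hspa5, -1.27 for Pdia4, -0.65 for Btg2, -1.13 for Fosl2, -2.21 for Nr4a2 and -1.92 for Rsad2. Remaining genes had 5.16 for Amy1, -5.13 for Cdh1, 2.42 for Chst3, 3.44 for H2-Q2, -1.26 for Pecam1, -1.69 for Pmel, -1.31 for Sbk1, 3.57 for Sgip1, 3.19 for Tnnt1 and 2.28 for 1500009L16Rik. The fitted values of -13.90 for Chil3, -11.15 for Slc7a2, -9.20 for Fabp4, -7.98 for F10, -7.75 for Nrg1 and 5.56 for Angptl2 depend on the prior count, because the first 5 had no count in spleen WT and Angptl2 none in spleen cKO.

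Under 16 other settings of this fit no sign changed for these 65 genes. The calls of 42 genes held in all 16 settings, and those of 23 were lost in at least 1, among them Gzmb, Tyrobp, Fcer1g, Cish, Chil3, Slc7a2, Fabp4 and F10. Groups of 3 libraries are too small for a test of single outlying libraries.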

How the results depend on the processing

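Of 216 named genes tested and also fitted under 10 other settings, 204 were called, and 196 of these were called under each. The exceptions were Adgre1, Cd3e, Cd8b1, Il1rl1, S100a9 and Tgfbr3, described above, and Flt3 and Chil3, which lost the call when all 12 libraries were fitted (1.52 and 2.84, adjusted p = 0.0585 and 0.0791). Adgre1 and Tgfbr3 lost it there too (0.97 and 1.64, both at an adjusted p of 0.0535). No called gene changed sign. Uncalled genes that did, with a library left out in turn, were Tigit (-0.59 to 0.81, the highest without spleen replicate 2), Cd4 (-0.44 to 0.32, the highest without tumor replicate 2, and 0.04 without spleen replicate 1) and Cd8a (-0.80 to 1.93, the highest without spleen replicate 2). Fcer1g was called by DESeq2 (0.80, adjusted p = 0.0139) and with all 12 libraries (0.79, adjusted p = 0.0380).

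A test against a minimum fold of 2 called 4870 genes in place of 10001, 2669 higher and 2201 lower. With a library left out in turn the tissue comparison called 9216 to 10224 genes (4871 to 5380 higher, 4345 to 4844 lower). The comparison of the genotypes, with 3072 calls, ranged from 2141 to 4059 (834 to 1829 higher, 1221 to 2230 lower). Where this left 2 libraries in a group, their spread was pooled with the other groups. Other normalizations, filters, DESeq2 and limma on RPKM gave 9700 to 11210 calls for the tissue comparison. For the genotypes, library totals alone gave 3260, no filter 3775 and DESeq2 4154. Counts in gene lists moved by over 1.5 times in 21 of 820 cases.

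The labels do not say that a replicate number marks a shared mouse or day, so the numbers were not taken as pairs. Deviations of same-numbered spleen and tumor libraries from their group means correlated at -0.027, 0.053 and 0.035. With 3 libraries per group, such values cannot exclude pairing. A replicate block called 9562 genes for tissue (5051 higher, 4511 lower) and 2490 for the genotypes. Under the block Tigit was at 0.18 and Cd8a at 0.62, both uncalled, Adgre1 and Tgfbr3 lost their calls (0.89 and 1.74, adjusted p = 0.0715 and 0.0575) and Fcer1g gained one (0.73, adjusted p = 0.00892). Not every library correlated best with its own number.

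The unequal depth of the libraries limits genes of few counts most, and a level of 0 allows up to 3 counts over a group, or 0.0819 CPM in spleen and 0.0474 CPM in tumor. Levels in bulk RNA do not separate cell numbers from RNA per cell.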
